A study of Mus musculus with 13 samples.

Results

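Lysosomal hydrolases, the proteins that assist them and the proton pump that acidifies the lysosome were followed as a set of 43 genes among the 19737 genes of the expression table. Membership was set by gene symbol. The cathepsin proteases were kept out of the set. It holds 19 hydrolases, 3 soluble lysosomal proteins that are not enzymes, 4 lysosomal membrane proteins, 3 transcription factors of the TFEB family, and 14 subunits and accessory proteins of the vacuolar proton pump (V-ATPase). All 43 genes passed the filter for testing, a mean of at least 1 FPKM (fragments counted per kilobase of transcript and unit of library depth) over all libraries. Of these, 42 also had a wild type mean of at least 1 FPKM, while Atp6v0d2 passed only through the 5xFAD groups.

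RNA came from mouse microglia, the phagocytes that reside in brain tissue, in 13 libraries. The vector AAV PHP.eB-EGFP was given to wild type animals (n = 3) and to 5xFAD animals (n = 2). The 5xFAD line carries transgenes driven by a neuronal promoter and deposits amyloid. PHP.eB is a capsid that crosses into the mouse brain from the blood, and EGFP is a fluorescent reporter protein. A further 5xFAD group (n = 4) had received AAV PHP.eB vectors for the circular RNA circPOLR2A, and is called 5xFAD circRNA here. Its treatment labels read circPOLR2A(9,10), circPOLR2A(9,11), circPOLR2A(9,12) and circPOLR2A(9,13), whereas the design text gives circPOLR2A(9,10) for all of them, so whether they share 1 construct is not settled. The last group (n = 4) is labelled 5xFAD; PKR KO, that is, without the kinase PKR, which double-stranded RNA activates and Eif2ak2 encodes. No vector is named for it, so loss of PKR and any difference in vector cannot be told apart when it is set against 5xFAD EGFP. Age, sex, the way the microglia were isolated and the kind of PKR deletion are not given in the sources used here.

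Lysosomes break down what a cell takes up or retires. Soluble hydrolases are carried there after synthesis, work in acid, and each cuts a particular bond in glycosaminoglycans, glycolipids, glycoproteins, glycogen, lipids or proteins. The V-ATPase makes the acid: its cytosolic V1 sector hydrolyses ATP and its V0 sector carries protons across the membrane. TFEB, TFE3 and MITF bind a short motif with the core CACGTG in the promoters of many lysosomal genes, and microglia depend on this system to digest myelin debris, dead cells and amyloid.

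Recovered depth ran from 45.2 to 70.0 M (mega) fragments per library, so all members except Atp6v0d2 in wild type were far above the counting limit. It was 57.7 to 70.0 M in the PKR KO libraries and 45.2 to 54.9 M in the other groups. The part of depth in the PKR KO comparisons was not tested. Summed FPKM of 9 microglial markers was 1966 to 3136 in wild type, 2505 to 2668 in 5xFAD EGFP, 2409 to 3563 in 5xFAD circRNA and 2934 to 3020 in 5xFAD PKR KO, with no marker at 0 throughout. The same sum was 5.82 to 26.8 for 8 neuronal, 78.3 to 258 for 6 astrocyte and 1.08 to 16.0 for 6 lymphocyte and neutrophil markers over all libraries. Wild type replicate 3 stood apart: its microglial sum was 1966 against 3079 and 3136 in the other wild type libraries, and its sum of 6 oligodendrocyte markers was 1580 against 392 and 352. It was also the lowest wild type library for 41 of the 43 members, while 55.0% of all tested genes were lowest there. Counts over all members called against wild type are therefore given with and without it, as are calls of single members that were lost. Counts by role and counts of groups that did not overlap are given with it included. Eif2ak2 was at 5.18, 5.23 and 4.14 FPKM in wild type, 6.49 and 6.59 in 5xFAD EGFP, 7.37, 7.48, 7.73 and 8.11 in 5xFAD circRNA and 3.35, 4.61, 3.31 and 4.16 in 5xFAD PKR KO. It was lower in each PKR KO library than in each 5xFAD EGFP or circRNA library, but 2 of them lay above the lowest wild type value and the transcript was still present in each. Which part of the gene is deleted is not given in the sources used here.

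Levels in wild type microglia spread widely within each class, on the FPKM scale, which is per length. Psap, which encodes the precursor of the saposins that present glycolipids to hydrolases, was the highest of all members at 624 ± 151 FPKM (SD, n = 3) and took 25.8% to 38.9% of the members' summed FPKM in single libraries. Of the hydrolases, Hexa was highest among those of glycolipids, glycoproteins and glycogen at 114 ± 26.9 FPKM (SD, n = 3) and Gla lowest at 1.22 ± 0.133 FPKM (SD, n = 3). Among the glycosaminoglycan enzymes the range ran from Galns at 3.04 ± 0.357 FPKM (SD, n = 3) to Naglu at 21.4 ± 4.40 FPKM (SD, n = 3), and Naglu, Gusb and Ids lay within their spread. Among the enzymes of lipids and proteins, Asah1, the acid ceramidase, was highest at 40.3 ± 9.73 FPKM (SD, n = 3) and Lipa lowest at 6.89 ± 1.23 FPKM (SD, n = 3). The lowest soluble non-enzyme was Npc2 at 23.3 ± 5.57 FPKM (SD, n = 3). Lamp1 led the membrane proteins at 128 ± 19.5 FPKM (SD, n = 3) and the calcium channel gene Mcoln1 was lowest at 5.04 ± 0.555 FPKM (SD, n = 3). The TFEB family spanned a narrow range, from Mitf at 5.84 ± 1.18 FPKM (SD, n = 3) to Tfe3 at 9.91 ± 1.73 FPKM (SD, n = 3). In the pump, Atp6v0b was highest of V0 at 34.8 ± 6.45 FPKM (SD, n = 3), and V1 ran from Atp6v1h at 2.97 ± 0.261 FPKM (SD, n = 3) to Atp6v1f at 19.7 ± 2.86 FPKM (SD, n = 3). Both accessory genes were well expressed, Atp6ap1 at 37.2 ± 6.07 FPKM (SD, n = 3) and Atp6ap2 at 20.2 ± 4.64 FPKM (SD, n = 3). Atp6v0d2 was practically silent in wild type, with 2, 5 and 0 recovered fragments.

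The first comparison asked how microglia of 5xFAD mice differ from those of wild type mice when both carry the EGFP vector. Part of the lysosomal hydrolases and of the proton pump was higher in 5xFAD microglia: 22 of the 43 genes rose and 1, Sgsh, fell. Without Atp6v0d2, which entered the test only through the 5xFAD groups, 21 of 42 rose and the median change was 0.46. Across all 10817 tested genes 14% were called, 7.65% higher and 6.35% lower. The median log2 change was 0.51 for the members and -0.03 for all tested genes. Changes were tested with limma on log2(FPKM + 1), with p-values adjusted by Benjamini-Hochberg over all tested genes and a threshold of 0.05. Changes below are on that scale unless voom or rescaling is named. Changes by voom are on a log2 scale of recovered fragments, and after rescaling the added 1 has a different weight. The size of such changes is therefore not directly comparable with that of the others. Of the 19 hydrolases 11 were higher and 1 lower, with a median of 0.59, and of the 13 pump genes other than Atp6v0d2 5 were higher, with a median of 0.13. The difference between both classes was not tested. In 26 members both 5xFAD EGFP libraries lay above all wild type libraries, and in 2 both lay below, against 16.5% and 21.1% of all tested genes (25 and 2 of 42 without Atp6v0d2).

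**Figure D1:**
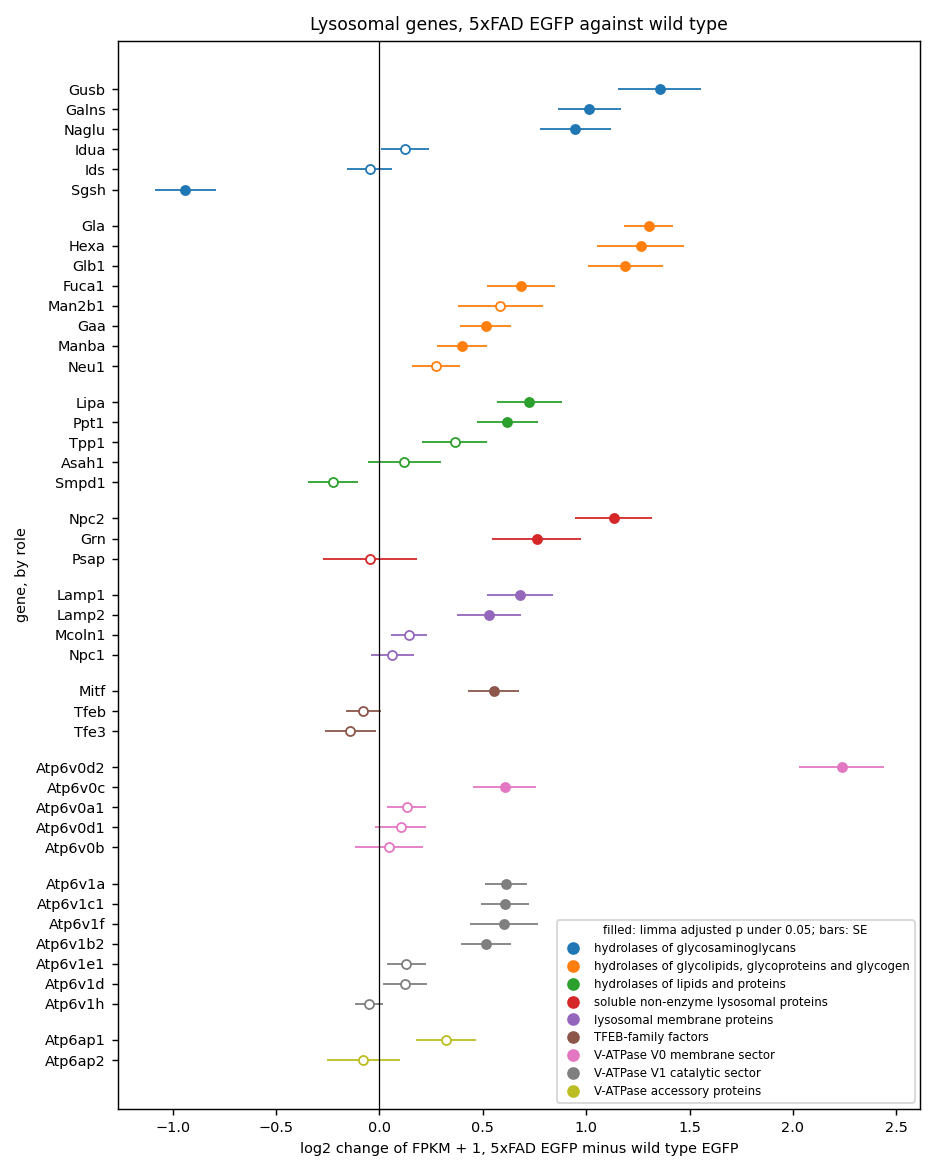
Log2 change of FPKM + 1 (x axis) from wild type EGFP to 5xFAD EGFP for each of the 43 genes (y axis), coloured by role; bars show the standard error from limma, and filled points have an adjusted p under 0.05. Most filled points lie to the right of 0, Atp6v0d2 is farthest at 2.23, and Sgsh alone is filled on the left at -0.94.

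Among the 6 enzymes of glycosaminoglycan breakdown 3 rose and 1 fell. Gusb, which encodes beta-glucuronidase, was at 22.3, 22.8 and 14.3 FPKM in wild type and 54.2 and 48.4 FPKM in 5xFAD EGFP. Its groups did not overlap, and it rose 2.59-fold (log2 change 1.36, SE 0.20, limma adjusted p = 0.000951). Galns, the sulfatase that acts on keratan sulfate and chondroitin 6-sulfate, was at 3.32, 3.16 and 2.64 FPKM in wild type and 6.74 and 7.57 in 5xFAD EGFP, a change of 1.01 (SE 0.15, limma adjusted p = 0.00103). Naglu, an enzyme of heparan sulfate breakdown, was at 22.6, 25.0 and 16.5 FPKM in wild type and 40.5 and 42.6 in 5xFAD EGFP, a change of 0.95 (SE 0.17, limma adjusted p = 0.00335). In both genes the 5xFAD libraries were well above the highest wild type library. Sgsh, the sulfamidase of the same heparan sulfate pathway, went the other way. It was at 5.78, 6.76 and 4.51 FPKM in wild type and 2.62 and 2.29 FPKM in 5xFAD EGFP. Its groups did not overlap, and it fell by 0.94 on the log2 scale (SE 0.15, limma adjusted p = 0.00131), while wild type replicate 3, the lowest of its group, was still above both 5xFAD libraries. An exon stretch covering 21.6% of Sgsh is shared with Card14 on the opposite strand, and Card14 had a mean of only 0.0106 FPKM over all libraries. Idua and Ids, which remove iduronate and its sulfate, had changes of 0.12 and -0.05 and did not pass the test. Gusb lies at chr5:129989011-130003049 and Sgsh at chr11:119343425-119355536, both on the minus strand of GRCm38 as annotated in GENCODE M21.

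Of the 8 enzymes that trim glycolipids, glycoproteins and glycogen, 6 rose and 0 fell. Gla, the alpha-galactosidase that is deficient in Fabry disease, was at 1.24, 1.34 and 1.07 FPKM in wild type and 4.12 and 4.84 in 5xFAD EGFP. This was the highest ratio of the hydrolases, 3.68-fold, and a fitted change of 1.30 (SE 0.12, limma adjusted p = 1.87e-05). Hexa, the alpha subunit of beta-hexosaminidase that is deficient in Tay-Sachs disease, was at 121, 137 and 84.5 FPKM in wild type and 289 and 253 in 5xFAD EGFP. It rose 2.37-fold (log2 change 1.26, SE 0.21, limma adjusted p = 0.00198), the largest gain of any hydrolase in absolute FPKM. Glb1, which encodes beta-galactosidase, was at 11.8, 12.4 and 8.05 FPKM in wild type and 27.6 and 23.3 in 5xFAD EGFP, a change of 1.19 (SE 0.18, limma adjusted p = 0.00112). For each of these enzymes both 5xFAD libraries lay far above the highest wild type library. Fuca1, an alpha-fucosidase, was at 14.4, 14.3 and 11.1 FPKM in wild type and 22.6 and 21.0 in 5xFAD EGFP, with a change of 0.68 (SE 0.16, limma adjusted p = 0.0153). Gaa, the glycogen-degrading alpha-glucosidase of Pompe disease, was at 23.5, 23.6 and 20.2 FPKM in wild type and 34.2 and 30.6 in 5xFAD EGFP, with a change of 0.51 (SE 0.12, limma adjusted p = 0.0154). Manba, a beta-mannosidase, was at 4.67, 4.29 and 3.19 FPKM in wild type and 5.72 and 5.49 in 5xFAD EGFP, with a change of 0.40 (SE 0.12, limma adjusted p = 0.0461). All 3 lay above wild type in both 5xFAD libraries, but Manba lost its call without wild type replicate 3 (log2 change 0.27, limma adjusted p = 0.0771). Man2b1, an alpha-mannosidase, and the sialidase gene Neu1 had changes of 0.59 and 0.27 and did not pass, although both 5xFAD libraries lay above wild type for each. Hexa shares 12.8% of its exon bases with Tmem202 on the opposite strand, which had a mean of 0.669 FPKM over all libraries against 255 for Hexa. Glb1 shares 5.49% with Tmppe on the same strand, at a mean of 4.42 FPKM against 24.9 for Glb1. A part of the fragments of both genes could be assigned either way.

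Of the 5 enzymes acting on lipids and proteins, 2 rose. Lipa, the acid lipase that frees cholesterol from its esters, was at 7.66, 7.55 and 5.47 FPKM in wild type and 12.5 and 11.4 in 5xFAD EGFP, with a change of 0.73 (SE 0.15, limma adjusted p = 0.00862). Ppt1, which removes palmitate from proteins, was at 25.1, 25.7 and 18.0 FPKM in wild type and 37.2 and 33.6 in 5xFAD EGFP, with a change of 0.62 (SE 0.15, limma adjusted p = 0.0157). Both groups were fully separated for each gene. Ppt1 shares 3.51% of its exon bases with the more abundant Cap1 on the opposite strand. The tripeptidyl peptidase gene Tpp1, the acid ceramidase gene Asah1 and the acid sphingomyelinase gene Smpd1 had changes of 0.36, 0.12 and -0.22 and did not pass. Smpd1 was the only enzyme besides Sgsh with both 5xFAD EGFP libraries below wild type, at 8.67 and 7.69 FPKM against 10.9, 9.41 and 8.85.

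**Figure D2:**
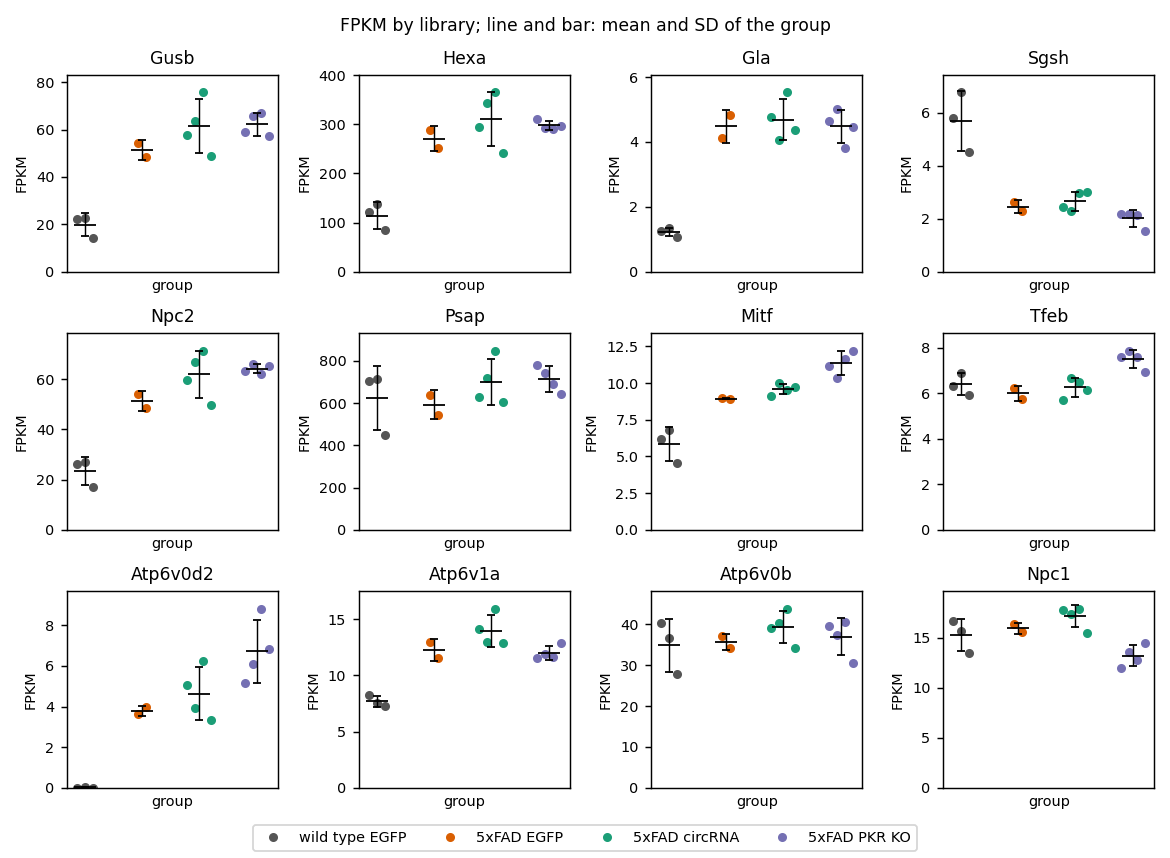
FPKM (y axis, from 0, with a separate scale in each panel) in each of the 13 libraries for 12 genes, by group along the x axis; points are single libraries, and lines and bars are the mean and SD of a group. Gusb, Hexa and Npc2 sit higher in all 3 5xFAD groups than in wild type, Sgsh sits lower, and Psap and Tfeb overlap between wild type and 5xFAD EGFP.

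The soluble helpers divided. Npc2, which hands cholesterol to the membrane protein NPC1, was at 26.1, 26.9 and 16.9 FPKM in wild type and 54.0 and 48.4 in 5xFAD EGFP. It rose 2.20-fold (log2 change 1.13, SE 0.19, limma adjusted p = 0.00181). Grn, which encodes progranulin, was at 174, 177 and 104 FPKM in wild type and 257 and 243 in 5xFAD EGFP, a change of 0.76 (SE 0.21, limma adjusted p = 0.0334). Both were separated from wild type in every library, although quantile normalization ended the Grn call (log2 change 0.27, limma adjusted p = 0.349). Psap, the most abundant member, was at 707, 715 and 449 FPKM in wild type and 641 and 543 in 5xFAD EGFP, and these groups overlapped (log2 change -0.05, limma adjusted p = 0.924).

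Of the 4 membrane proteins 2 rose, both major glycoproteins of the lysosomal membrane. Lamp1 was at 141, 137 and 105 FPKM in wild type and 202 and 205 in 5xFAD EGFP, with a change of 0.68 (SE 0.16, limma adjusted p = 0.0142). Lamp2 was at 22.1, 20.6 and 14.9 FPKM in wild type and 28.5 and 27.0 in 5xFAD EGFP, with a change of 0.53 (SE 0.16, limma adjusted p = 0.0409). The Lamp1 call was lost under quantile normalization (log2 change 0.20, limma adjusted p = 0.308). It held without wild type replicate 3, whereas Lamp2 then had a log2 change of 0.36 and a limma adjusted p of 0.0636. Npc1 and Mcoln1, a cholesterol exporter and a calcium channel of the lysosome, had changes of 0.06 and 0.14, and their groups overlapped. Lamp1 shares 9.31% of its exon bases with Grtp1, which had a mean of 0.211 FPKM, and Npc1 shares 4.52% with Rmc1, each on the opposite strand.

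Of the 3 TFEB-family factors, only Mitf passed the test. Mitf was at 6.17, 6.82 and 4.53 FPKM in wild type and 8.95 and 8.91 in 5xFAD EGFP, with a change of 0.55 (SE 0.12, limma adjusted p = 0.0103). Tfeb was at 6.34, 6.89 and 5.93 FPKM in wild type and 6.22 and 5.76 in 5xFAD EGFP, with a change of -0.08 (SE 0.08, limma adjusted p = 0.606). Tfe3 was at 10.8, 11.0 and 7.91 FPKM in wild type and 8.58 and 9.04 in 5xFAD EGFP, with a change of -0.14 (SE 0.12, limma adjusted p = 0.518). Mitf libraries were separated while those of Tfeb and Tfe3 overlapped. These are transcript levels, and the activity of TFEB and TFE3 is set largely by phosphorylation and entry into the nucleus, which were not measured.

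RefSeq promoter windows (GRCm38.p6, 250 bases before to 50 bases after the start of transcription) were found for 36 of the 43 genes, without Galns, Asah1, Npc1, Atp6v0d2, Atp6v1b2, Atp6v1c1 and Atp6v1h. The core motif CACGTG, which reads the same on both strands, was present in 10 of these 36 (27.8%) and in 8.09% of 27025 mouse genes with a window. The longer TCACGTGA, which contains it, was in 4 members (11.1%) against 1.12% of genes. A full form of 10 bases, with G before and C after those letters, was in 0 members against 0.370% of genes. By outcome in 5xFAD EGFP, the core was in 6 of 18 matched genes that rose, in 3 of 17 without a call and in Sgsh, which fell. The 10 genes were Sgsh, Naglu, Glb1, Gaa, Gla, Lamp1, Mcoln1, Atp6v0b, Atp6v0d1 and Atp6v1a. A match is a description of letters in the window and not a measured binding site. The following windows are printed because they hold the core motif (in capitals) in 3 genes that rose, in the 1 that fell and in 1 without a call; each reads 5′ to 3′ along the gene's own strand.
Lamp1, chr8:13158911-13159210, plus strand: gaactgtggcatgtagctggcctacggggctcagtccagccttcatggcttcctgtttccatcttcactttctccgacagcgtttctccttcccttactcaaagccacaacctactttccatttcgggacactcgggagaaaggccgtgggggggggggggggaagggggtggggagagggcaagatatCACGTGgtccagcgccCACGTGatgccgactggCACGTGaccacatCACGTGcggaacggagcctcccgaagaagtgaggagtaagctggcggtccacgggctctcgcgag
Gla, chrX:134600956-134601255, minus strand: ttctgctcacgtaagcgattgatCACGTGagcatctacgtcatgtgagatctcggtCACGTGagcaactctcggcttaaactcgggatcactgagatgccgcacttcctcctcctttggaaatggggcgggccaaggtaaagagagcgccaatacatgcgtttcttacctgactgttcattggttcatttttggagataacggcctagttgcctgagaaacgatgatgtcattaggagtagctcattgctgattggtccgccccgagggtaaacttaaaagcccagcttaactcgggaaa
Atp6v1a, chr16:44139210-44139509, minus strand: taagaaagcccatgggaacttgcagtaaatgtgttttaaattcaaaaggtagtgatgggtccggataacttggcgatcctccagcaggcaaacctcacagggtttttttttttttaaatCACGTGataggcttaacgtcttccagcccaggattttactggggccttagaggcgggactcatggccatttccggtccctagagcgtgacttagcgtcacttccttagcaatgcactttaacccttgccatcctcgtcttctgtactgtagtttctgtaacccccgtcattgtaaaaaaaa
Sgsh, chr11:119355461-119355760, minus strand: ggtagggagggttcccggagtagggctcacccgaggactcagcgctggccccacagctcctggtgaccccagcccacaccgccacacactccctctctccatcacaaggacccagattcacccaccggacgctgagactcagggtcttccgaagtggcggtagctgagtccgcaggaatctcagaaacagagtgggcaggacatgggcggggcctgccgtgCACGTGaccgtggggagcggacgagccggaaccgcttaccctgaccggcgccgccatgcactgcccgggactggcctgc
Atp6v0b, chr4:117887280-117887579, minus strand: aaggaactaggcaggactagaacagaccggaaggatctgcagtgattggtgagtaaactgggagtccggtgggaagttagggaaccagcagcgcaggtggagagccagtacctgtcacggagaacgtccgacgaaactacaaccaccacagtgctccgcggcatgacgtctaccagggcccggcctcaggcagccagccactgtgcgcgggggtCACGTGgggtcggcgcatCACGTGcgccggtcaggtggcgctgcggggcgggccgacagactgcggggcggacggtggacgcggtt
Lamp1 carries 4 copies between 61 and 15 bases before its start, Gla and Atp6v0b carry 2 each, and Atp6v1a and Sgsh carry 1 each.

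The proton pump changed in part. In the membrane sector V0, Atp6v0c rose, and Atp6v0d2 went from near 0 to a low level. Atp6v0d2, an alternative d subunit known from osteoclasts and macrophages, gave 2, 5 and 0 recovered fragments in wild type and 525 and 593 in 5xFAD EGFP, or 3.61 and 3.98 FPKM. Both 5xFAD EGFP libraries were far above wild type. The fitted log2 change of 2.23 depends on the added 1 because wild type is near 0, and since the gene passed the filter only through the groups where it is high, its difference from wild type is a description. Atp6v0d2 lies at chr4:19876841-19922605 on the minus strand of GRCm38. The usual d subunit gene Atp6v0d1 was at 27.4, 24.4 and 21.6 FPKM in wild type and 28.4 and 24.2 in 5xFAD EGFP, and did not pass (log2 change 0.10). Thus the alternative subunit was still far below the usual one in 5xFAD microglia. Atp6v0c, the proteolipid of the rotor ring, was at 17.6, 17.9 and 12.7 FPKM in wild type and 25.2 and 24.2 in 5xFAD EGFP, with a change of 0.61 (SE 0.15, limma adjusted p = 0.0191). Its level is uncertain to the extent that counting shared fragments with 2 processed pseudogenes. Atp6v0a1 and Atp6v0b overlapped wild type, with changes of 0.13 and 0.05.

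In the catalytic sector V1, 4 of 7 genes rose by similar amounts, from 0.51 to 0.61. Atp6v1a, the catalytic subunit, was at 8.27, 7.54 and 7.24 FPKM in wild type and 13.0 and 11.6 in 5xFAD EGFP, with a change of 0.61 (SE 0.10, limma adjusted p = 0.00176). Atp6v1b2, its partner in the nucleotide-binding ring, was at 12.9, 12.2 and 10.6 FPKM in wild type and 19.3 and 15.6 in 5xFAD EGFP, with a change of 0.51 (SE 0.12, limma adjusted p = 0.0142). Groups were separated for both ring subunits. Atp6v1c1, a subunit at the contact with V0, was at 11.1, 10.9 and 8.33 FPKM in wild type and 17.3 and 14.5 in 5xFAD EGFP, with a change of 0.61 (SE 0.12, limma adjusted p = 0.00494). Atp6v1f, a small subunit of the central stalk, was at 21.4, 21.3 and 16.4 FPKM in wild type and 32.9 and 27.7 in 5xFAD EGFP, with a change of 0.60 (SE 0.16, limma adjusted p = 0.0281). Atp6v1f narrowly lost its call without wild type replicate 3 (log2 change 0.48, limma adjusted p = 0.0536), and the other 3 kept theirs. Subunits of 1 complex did not all pass: Atp6v1d, Atp6v1e1 and Atp6v1h had changes of 0.12, 0.13 and -0.05, and neither accessory gene passed (Atp6ap1 0.32, Atp6ap2 -0.08).

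Without wild type replicate 3, 19 of the 43 members were higher and 1 lower, with a median of 0.36 over the members, 0.44 over the hydrolases and 0.07 over the pump genes other than Atp6v0d2, where 8.96% of all tested genes were higher and 9.51% lower. The members' count rested more on the 5xFAD EGFP libraries: without replicate 1 it was 9 higher and 1 lower (all tested genes 3.61% and 2.54%), and without replicate 2 it was 12 higher and 1 lower (4.5% and 0.73%). With only these 2 groups in the fit 7 were higher and 1 lower, against 3.57% and 1.14% of all tested genes. After rescaling each library to the same FPKM sum, 20 were higher and 3 lower, with Smpd1 and Atp6v1h below wild type beside Sgsh. That setting called 6.55% of all tested genes higher and 26.7% lower. Gusb, Galns, Sgsh, Glb1, Gla, Npc2, Atp6v1a and, as described, Atp6v0d2 passed in each of the 14 alternatives run. The other calls were each lost in at least 1, and Manba, Lamp2, Grn, Lamp1 and Atp6v1f passed in 6, 7, 8, 9 and 9 of them. Markers of other cells moved in the same comparison: all 5 border macrophage markers and 5 of 6 endothelial and mural markers were lower in 5xFAD EGFP, with summed FPKM of 17.2 to 23.8 against 34.6 to 54.9 in wild type for the first list and 30.5 to 43.4 against 69.4 to 159 for the second. With wild type replicate 3 left out, 5 of 5 and 4 of 6 were called lower. Of 6 astrocyte markers Gfap was higher (log2 change 1.72, limma adjusted p = 0.00868) and the other 5 had negative changes that did not pass. Of the 9 microglial markers 1 was higher and 1 lower, with changes from -1.07 to 1.15. Their part in the lysosomal results was not tested. In RNA from many cells, fewer cells of a type and less RNA per cell cannot be told apart.

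**Figure D3:**
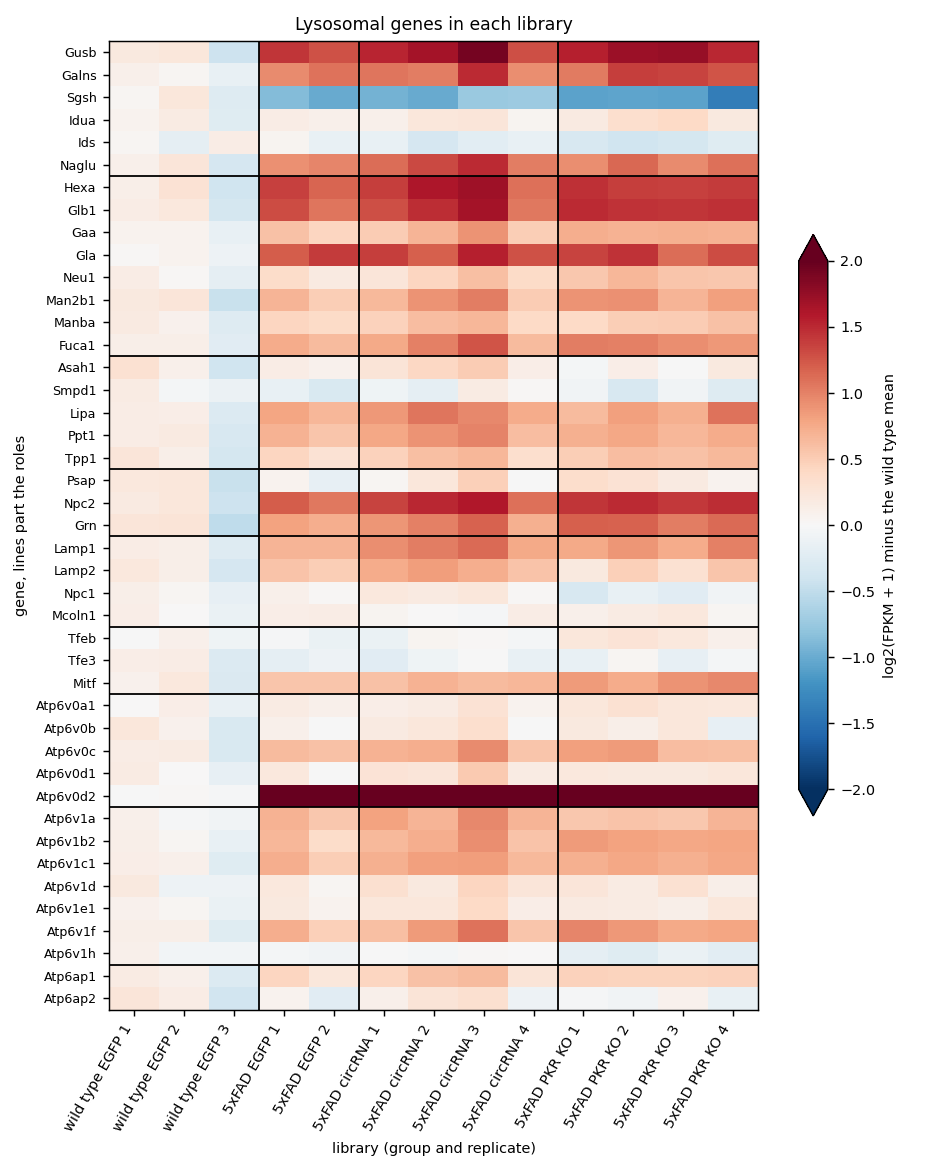
Log2(FPKM + 1) of each of the 43 genes (rows, by role) in each of the 13 libraries (columns, by group), as the difference from the wild type mean; the colour scale ends at -2 and 2, and larger differences have the end colour. Wild type replicate 3 is below the wild type mean in nearly every row, and the Gusb, Hexa, Glb1, Gla, Npc2 and Atp6v0d2 rows are high across the 10 5xFAD libraries while Sgsh is low.

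A further 75 lysosomal genes outside the set were listed by role, of which 67 could be tested. In 5xFAD EGFP against wild type 15 of them rose and 3 fell, with a median of 0.19, where 7.65% of all tested genes were higher and 6.35% lower. Without wild type replicate 3, 12 were higher and 6 lower, with a median of 0.07, against 8.96% and 9.51% of all tested genes. By list, 7 rose and 1 fell of 24 other hydrolases, and 5 rose and 1 fell of 24 other membrane and trafficking proteins. In a list of TFEB regulators and the related factor Tfec, 3 of 13 tested genes rose. Of 6 other pump subunits 1 fell. Cd68, a heavily glycosylated lysosomal protein of macrophages, was at 134, 142 and 81.1 FPKM in wild type and 367 and 355 in 5xFAD EGFP, with a change of 1.63 (SE 0.23, limma adjusted p = 0.000709). Cd63, a tetraspanin of late endosomes, was at 15.9, 14.1 and 11.4 FPKM in wild type and 39.5 and 32.7 in 5xFAD EGFP, with a change of 1.33 (SE 0.19, limma adjusted p = 0.000605). The peptidase gene Dpp7 changed by 1.29 (SE 0.16, limma adjusted p = 0.000300). The 3 genes that fell were Igf2r, a mannose 6-phosphate receptor that sorts hydrolases (log2 change -0.69, SE 0.20, limma adjusted p = 0.0378), Atp6v0a2 (log2 change -0.53, SE 0.13, limma adjusted p = 0.0174) and Hyal2 (log2 change -0.45, SE 0.11, limma adjusted p = 0.0144). The Igf2r call was lost without wild type replicate 3 (log2 change -0.62, limma adjusted p = 0.0679), and the other 5 genes named here kept theirs.

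The next comparison asked whether the circPOLR2A vector changed these genes in 5xFAD microglia relative to the EGFP vector. No member passed the limma test (0 of 43), with 0% of all tested genes called. At an unadjusted p under 0.05 there were 0 members against 4.83% of all tested genes, and limma voom on recovered fragments also called 0. The changes were small and mostly positive: 41 of 43 were above 0, with a median of 0.17 against 0.08 for all tested genes, and 3 members had all circRNA libraries above both EGFP libraries, against 16.6% of all tested genes, and 0 had them all below, against 2.65%. Rescaling each library to the same FPKM sum brought the members' median to 0.06 and that of all tested genes to -0.01.

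The members with the smallest unadjusted p were Lamp1, Atp6v1a and Naglu among positive changes. Lamp1 was at 243, 257, 279 and 215 FPKM with circRNA and 202 and 205 with EGFP, a change of 0.28 (SE 0.15, limma adjusted p = 0.739). Atp6v1a was at 14.2, 13.0, 15.9 and 12.9 FPKM with circRNA and 13.0 and 11.6 with EGFP, a change of 0.17 (SE 0.09, limma adjusted p = 0.739). Naglu was at 47.0, 54.0, 60.8 and 43.7 FPKM with circRNA and 40.5 and 42.6 with EGFP, a change of 0.29 (SE 0.16, limma adjusted p = 0.739). Lamp1 and Naglu did not overlap between groups, but circRNA replicate 4 was within 2 FPKM of the nearer EGFP library for Naglu. Only Ids and Mcoln1 were negative. Ids was at 16.7, 14.6, 16.0 and 16.9 FPKM with circRNA and 19.4 and 16.9 with EGFP, a change of -0.17 (SE 0.10, limma adjusted p = 0.739). Mcoln1 was at 5.26, 5.06, 4.94 and 5.67 FPKM with circRNA and 5.58 and 5.70 with EGFP, a change of -0.09 (SE 0.08, limma adjusted p = 0.748). The circRNA libraries differed among themselves: replicate 3 was highest of the 4 for 36 of 43 members and replicate 4 lowest for 32, against 56.6% and 36.6% of all tested genes. Marker sums differed between the same libraries: the microglial sum was 3563 FPKM in replicate 3 and 2409 in replicate 4, and the oligodendrocyte sum 307 and 786. Their labels differ too. The part of the markers or the label in this spread was not tested.

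5xFAD mice without PKR were then set against 5xFAD EGFP. No member passed the limma test (0 of 43), where 0.0832% of all tested genes did. At an unadjusted p under 0.05 there were 7 members, against 13% of all tested genes, and limma voom called 0. The median change was 0.12 for the members and 0.01 for all tested genes. All PKR KO libraries lay above both EGFP libraries for 20 members and below for 4, against 17.7% and 17% of all tested genes, with only 2 EGFP libraries to clear.

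The 3 positive changes with the smallest p included both TFEB and MITF. Tfeb was at 7.61, 7.88, 7.58 and 6.93 FPKM in PKR KO and 6.22 and 5.76 in 5xFAD EGFP, a change of 0.28 (SE 0.08, limma adjusted p = 0.209). Atp6v0d2 was at 5.14, 6.10, 8.82 and 6.83 FPKM in PKR KO and 3.61 and 3.98 in 5xFAD EGFP, a change of 0.67 (SE 0.19, limma adjusted p = 0.216). Mitf was at 11.2, 10.3, 11.7 and 12.2 FPKM in PKR KO and 8.95 and 8.91 in 5xFAD EGFP, a change of 0.31 (SE 0.12, limma adjusted p = 0.283). Groups did not overlap for these 3 genes, and Tfe3 had a change of 0.06 (SE 0.12, limma adjusted p = 0.839) with overlap. On the negative side stood Ids, Npc1 and Atp6v1h. Ids was at 14.8, 13.9, 14.5 and 15.6 FPKM in PKR KO and 19.4 and 16.9 in 5xFAD EGFP, a change of -0.28 (SE 0.10, limma adjusted p = 0.273). Npc1 was at 12.0, 13.6, 12.8 and 14.5 FPKM in PKR KO and 16.3 and 15.5 in 5xFAD EGFP, a change of -0.25 (SE 0.10, limma adjusted p = 0.312). Atp6v1h was at 2.50, 2.34, 2.62 and 2.44 FPKM in PKR KO and 2.88 and 2.78 in 5xFAD EGFP, a change of -0.14 (SE 0.07, limma adjusted p = 0.393). These 3 were also fully below 5xFAD EGFP. Weighting the libraries by their estimated quality called 5 members, Neu1, Tfeb, Mitf and Atp6v0d2 higher and Ids lower, the one alternative that called any. It called 7.6% of all tested genes, 4.37% higher and 3.23% lower. The oligodendrocyte marker sum was 225 to 375 in PKR KO and 636 to 680 in 5xFAD EGFP, and its part in these values was not tested.

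Against wild type, most hydrolases and part of the pump were also higher in both other 5xFAD groups, circRNA and PKR KO. Of the 19 hydrolases 14 were higher and 1 lower with circRNA, and 15 were higher and 2, Sgsh and Ids, lower without PKR. Of the 13 pump genes other than Atp6v0d2, 9 were higher with circRNA, and 7 higher and 1 lower without PKR. With circRNA 29 members were higher and 1 lower than in wild type, where 25.8% of all tested genes were called, 17.8% higher and 8.05% lower, and the members' median was 0.64 against 0.02 (28 higher and a median of 0.59 without Atp6v0d2). Without PKR 29 were higher and 3 lower, where 37% of all tested genes were called, 17.5% higher and 19.4% lower, and the median was 0.58 against -0.05 (28 higher, again 0.58, without Atp6v0d2). Every circRNA library lay above wild type for 28 members and below for 1, against 20.2% and 8% of all tested genes. For PKR KO these counts were 30 and 3, against 19.8% and 21.1%. Without Atp6v0d2, 27 and 29 members of 42 lay above. These comparisons and the first share the wild type libraries, so their likeness is no separate evidence. Without wild type replicate 3 the counts were 26 higher and 2 lower with circRNA (all tested genes 15% and 8.81%) and 25 higher and 4 lower without PKR (15.3% and 19.7%). After rescaling to the same FPKM sum 23 were higher and 6 lower with circRNA, where 9.23% of all tested genes were higher and 42.7% lower. Without PKR 24 were then higher and 6 lower, against 10.9% and 50% of all tested genes. Sgsh, Ids, Smpd1, Tfe3 and Atp6v1h were lower in both groups under this setting, with Tfeb also lower with circRNA and Npc1 without PKR. Npc1 had a change of -0.19 (SE 0.09, limma adjusted p = 0.107) in PKR KO against wild type, and it was also called lower with library weights (log2 change -0.25), under quantile normalization (-0.31), by voom (-0.32) and without wild type replicate 3 (-0.27). Markers of other cells moved here too: all 5 border macrophage markers were lower in both groups, with medians of -1.01 and -1.16, as were 3 of 6 endothelial and mural markers with circRNA and 5 of 6 without PKR. The summed FPKM was 13.2 to 23.5 with circRNA and 12.8 to 17.9 without PKR for the first list, and 40.5 to 81.9 and 41.5 to 65.1 for the second. The border macrophage calls held without wild type replicate 3, and 2 of 6 endothelial and mural markers were lower with circRNA and 3 of 6 without PKR. Gfap was higher in both groups (log2 change 1.84 and 2.25), and 2 other astrocyte markers were lower without PKR. Of the 9 microglial markers 2 were higher and 1 lower with circRNA, and 2 higher and 2 lower without PKR. Their part in the lysosomal results was not tested.

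**Figure D4:**
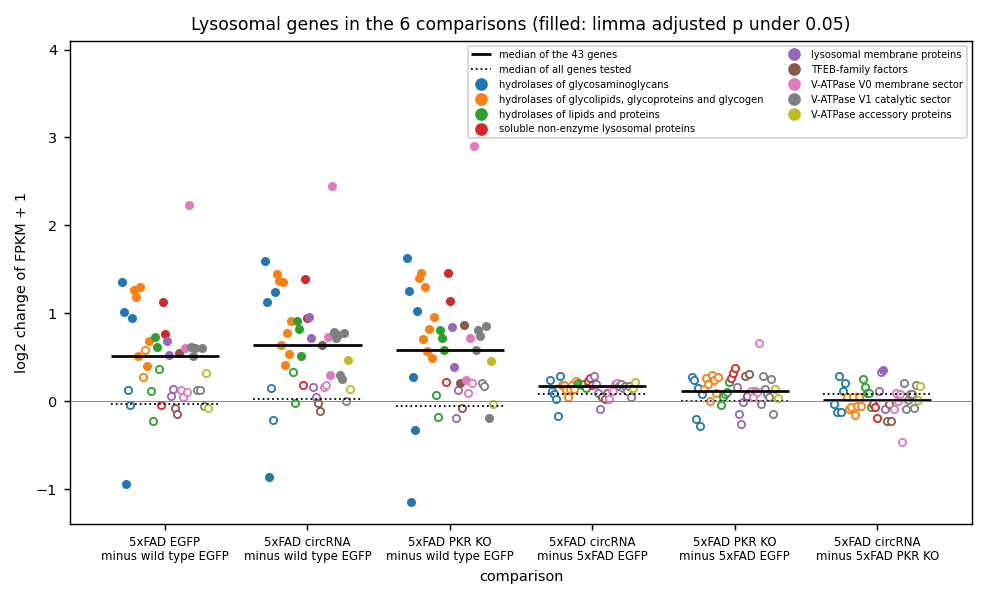
Log2 change of FPKM + 1 (y axis) of the 43 genes in each of the 6 comparisons (x axis), coloured by role; filled points have a limma adjusted p under 0.05, the solid line is the median of the members and the dotted line that of all tested genes. The 3 comparisons with wild type hold most filled points, with medians of 0.51, 0.64 and 0.58, and those within 5xFAD lie close to 0, with medians of 0.17, 0.12 and 0.01.

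Among glycosaminoglycan enzymes, Gusb was at 57.6, 63.8, 75.7 and 48.9 FPKM with circRNA and 59.1, 65.8, 67.1 and 57.2 without PKR, with changes from wild type of 1.60 (SE 0.17, limma adjusted p = 2.84e-05) and 1.63 (SE 0.17, limma adjusted p = 1.72e-05). Galns was at 7.42, 7.18, 10.3 and 6.71 FPKM with circRNA and 7.31, 9.45, 9.26 and 8.61 without PKR. Naglu, given above with circRNA, was at 40.8, 48.0, 41.5 and 46.4 FPKM without PKR. All libraries of both groups were above wild type for these 3 genes. Sgsh was at 2.43, 2.28, 2.95 and 2.99 FPKM with circRNA and 2.16, 2.18, 2.15 and 1.53 without PKR, below every wild type library, with changes of -0.86 (SE 0.12, limma adjusted p = 0.000287) and -1.15 (SE 0.12, limma adjusted p = 2.3e-05). Ids fell in PKR KO (log2 change -0.33, SE 0.09, limma adjusted p = 0.0138), while with circRNA its change was -0.21 (SE 0.09, limma adjusted p = 0.105). With circRNA it was called lower without wild type replicate 2 (log2 change -0.30, limma adjusted p = 0.0316), under the 3 other scalings and by voom. Idua rose in PKR KO (log2 change 0.28, SE 0.10, limma adjusted p = 0.0399), a call that held in 7 of 16 alternatives and was lost without wild type replicate 3 (log2 change 0.16).

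All 8 enzymes of glycolipids, glycoproteins and glycogen rose in both the circRNA and the PKR KO group against wild type. Hexa was at 294, 344, 365 and 241 FPKM with circRNA and 310.4, 293, 291 and 296 without PKR, with changes of 1.45 (SE 0.18, limma adjusted p = 8.18e-05) and 1.40 (SE 0.18, limma adjusted p = 8.42e-05). Glb1 was at 27.2, 31.3, 35.5 and 23.1 FPKM with circRNA and 31.5, 30.6, 30.1 and 30.7 without PKR, with changes of 1.37 (SE 0.15, limma adjusted p = 4.04e-05) and 1.45 (SE 0.15, limma adjusted p = 1.92e-05). Gla was at 4.76, 4.07, 5.53 and 4.36 FPKM with circRNA and 4.65, 5.0, 3.80 and 4.46 without PKR. In all 3, circRNA and PKR KO libraries overlapped each other and none reached down to wild type. Gaa was at 32.2, 36.4, 42.3 and 31.7 FPKM with circRNA and 37.7, 36.8, 37.4 and 36.8 without PKR. Fuca1 was at 23.0, 27.4, 32.8 and 20.9 FPKM with circRNA and 27.9, 27.6, 26.0 and 25.0 without PKR. Manba was at 5.88, 6.67, 6.96 and 5.59 FPKM with circRNA and 5.60, 6.02, 6.08 and 6.49 without PKR. These too were above wild type in every library. Man2b1 and Neu1, which had not passed with EGFP, passed with changes of 0.77 (SE 0.17, limma adjusted p = 0.00601) and 0.41 (SE 0.10, limma adjusted p = 0.00830) with circRNA, and of 0.83 (SE 0.17, limma adjusted p = 0.00302) and 0.57 (SE 0.10, limma adjusted p = 0.000830) without PKR. The Neu1 call with circRNA was lost after rescaling (log2 change 0.17, limma adjusted p = 0.125), and the Man2b1 call without PKR under quantile normalization (log2 change 0.35, limma adjusted p = 0.05003). Both genes also passed in 5xFAD EGFP against wild type under median-ratio scaling (limma adjusted p = 0.0440 for Man2b1 and 0.0448 for Neu1).

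The lipid and protein enzymes Lipa and Ppt1 rose again, joined by Tpp1. Lipa was at 13.2, 15.5, 14.2 and 12.1 FPKM with circRNA and 11.2, 12.8, 11.8 and 15.7 without PKR. Ppt1 was at 39.3, 43.0, 46.3 and 35.1 FPKM with circRNA and 37.6, 39.3, 36.4 and 38.7 without PKR. Tpp1 changed by 0.52 (SE 0.13, limma adjusted p = 0.0123) with circRNA and by 0.59 (SE 0.13, limma adjusted p = 0.00475) without PKR. The Tpp1 call with circRNA held in 13 of 16 alternatives. It was lost after rescaling, under quantile normalization and with the 2 groups alone. Asah1 and Smpd1 passed in neither group, although Asah1 passed with circRNA without wild type replicate 1 (log2 change 0.48, limma adjusted p = 0.0372). Smpd1 was called lower without PKR under quantile normalization and voom (log2 change -0.23 and -0.31). Of the soluble helpers, Npc2 was at 59.8, 66.9, 71.4 and 49.8 FPKM with circRNA and 63.2, 65.8, 62.2 and 65.3 without PKR. Grn was at 273, 296, 334 and 240.5 FPKM with circRNA and 339.9, 334, 302 and 324 without PKR. Npc2 and Grn rose in both groups, by 1.39 and 0.94 with circRNA and by 1.45 and 1.14 without PKR. The Grn call with circRNA was lost under quantile normalization (log2 change 0.32, limma adjusted p = 0.120). Psap passed in neither, with changes of 0.19 and 0.22.

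Lamp1 and Lamp2 rose against wild type in both the circRNA and the PKR KO group. Lamp1 was at 214, 233, 213 and 256 FPKM without PKR, a call lost under quantile normalization (log2 change 0.21, limma adjusted p = 0.124). Lamp2 was at 32.4, 34.8, 32.0 and 28.5 FPKM with circRNA and 21.8, 26.8, 23.7 and 28.2 without PKR. Lamp2 without PKR overlapped wild type, and its call (log2 change 0.38, SE 0.13, limma adjusted p = 0.0364) held in 6 of 16 alternatives and was lost without wild type replicate 3 (log2 change 0.22). Mitf rose in both, at 9.15, 10.0, 9.50 and 9.71 FPKM with circRNA, with changes of 0.64 (SE 0.10, limma adjusted p = 0.000620) and 0.86 (SE 0.10, limma adjusted p = 5.13e-05). Tfeb was at 5.72, 6.66, 6.49 and 6.16 FPKM with circRNA and did not pass (log2 change -0.02, SE 0.07, limma adjusted p = 0.840). Without PKR it was called higher than wild type (log2 change 0.20, SE 0.07, limma adjusted p = 0.0385), a call that held in 6 of 16 alternatives and was lost without wild type replicate 3, and after rescaling the value was -0.000878. Tfe3 was at 8.28, 9.23, 9.76 and 8.73 FPKM with circRNA and 8.79, 10.1, 8.60 and 9.48 without PKR and passed in neither. With circRNA it was called lower without wild type replicate 3 (log2 change -0.25, limma adjusted p = 0.0396) and with library weights (log2 change -0.27, limma adjusted p = 0.0340), and after rescaling it was lower in both groups (log2 change -0.41 and -0.32).

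In the pump, Atp6v0d2 was at 5.05, 3.94, 6.27 and 3.32 FPKM with circRNA. Its fitted log2 changes from wild type, again a description, were 2.44 with circRNA and 2.90 without PKR. Atp6v0c was at 26.3, 26.9, 31.5 and 23.7 FPKM with circRNA and 28.9, 29.4, 25.0 and 24.6 without PKR. Every 5xFAD library exceeded wild type for both genes. Atp6v1a was at 11.5, 11.9, 11.7 and 12.9 FPKM without PKR. Atp6v1b2 was at 19.1, 20.2, 23.4 and 18.1 FPKM with circRNA and 22.2, 21.5, 20.9 and 21.3 without PKR. Atp6v1c1 was at 17.2, 18.6, 18.7 and 16.4 FPKM with circRNA and 17.1, 17.9, 17.1 and 17.9 without PKR. These 3 V1 subunits and Atp6v1f rose in both groups, the last at 30.3, 36.2, 42.5 and 29.2 FPKM with circRNA and 39.4, 36.7, 33.9 and 34.6 without PKR. Atp6v1d and Atp6v1e1 also rose with circRNA, by 0.30 and 0.25, but these calls held in 9 and 5 of 16 alternatives, both were lost without wild type replicate 3, and after rescaling Atp6v1e1 was at -0.02. Atp6v1h fell without PKR (log2 change -0.19, SE 0.06, limma adjusted p = 0.0226). This call held in 11 of 16 alternatives and was lost under median-ratio scaling (log2 change -0.11), quantile normalization (log2 change -0.08), the 2 groups alone, and without PKR KO replicate 2 or wild type replicate 1. Atp6v0d1 with circRNA (log2 change 0.30, SE 0.10, limma adjusted p = 0.0496) and Atp6v0a1 without PKR (log2 change 0.24, SE 0.08, limma adjusted p = 0.0311) were called higher, each in only 5 of 16 alternatives, and both calls were lost without wild type replicate 3. Atp6ap1 rose in both groups, by 0.47 with circRNA and 0.46 without PKR. Both calls were lost after rescaling and under quantile normalization, and the circRNA call also with the 2 groups alone. Atp6ap2 passed in neither group.

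Of the other lysosomal genes tested against wild type, 32 were higher and 3 lower of 67 with circRNA, where 17.8% and 8.05% of all tested genes were. Without PKR 26 were higher and 9 lower, against 17.5% and 19.4% of all tested genes. Their medians were 0.34 and 0.24. Without wild type replicate 3 the counts were 23 higher and 7 lower with circRNA and 23 higher and 10 lower without PKR, with medians of 0.21 and 0.11. All tested genes then gave 15% higher and 8.81% lower with circRNA and 15.3% and 19.7% without PKR. Against 5xFAD EGFP 0 passed limma in either group, and 1 and 6 had an unadjusted p under 0.05, against 4.83% and 13% of all tested genes. Limma voom also called 0 in both.

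Set directly against each other, the circRNA and PKR KO groups differed in 1 member, Npc1, higher with circRNA, where 6.19% of all tested genes were called, 4.28% higher and 1.91% lower. Under median ratios the split was 0 higher and 2 lower, against 1.37% and 6.44% of all tested genes. Under quantile normalization it was 1 higher and 1 lower (1.52% and 3.21% of all tested genes), as it was after rescaling (3.6% and 3.24%). Npc1 was at 17.8, 17.4, 17.9 and 15.5 FPKM with circRNA and 12.0, 13.6, 12.8 and 14.5 without PKR, with no overlap and a change of 0.35 (SE 0.08, limma adjusted p = 0.0289). It lost the call in 6 of 8 fits that left out 1 library of these groups, leaving none called there. The members' median was 0.01 against 0.08 for all tested genes, and it took the opposite sign under the 3 other scalings, at -0.11 with median ratios, -0.02 with quantile normalization and -0.05 after rescaling. At an unadjusted p under 0.05 there were 8 members, against 25.5% of all tested genes, and 5 had all circRNA libraries above PKR KO and 2 all below, against 15.1% and 4.44%. Tfeb was lower with circRNA than without PKR in every library and just missed the threshold (log2 change -0.23, SE 0.06, limma adjusted p = 0.0569), and it was called lower under those 3 scalings.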

How the data were processed

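Total RNA from microglia was extracted with TRIzol, depleted of ribosomal RNA, made into stranded total RNA libraries and sequenced on a NovaSeq instrument, per the labels' protocols. The submitters' processing notes name Bowtie2 2.3.5, HISAT2 2.1.0, featureCounts 1.5.1 and build mm10, with no role for each. The annotation, gene lengths and strand setting are not given in the sources used here. The authors deposited 1 table of FPKM values with 1 column per library, all mapped to samples by title (0 left over). FPKM is relative to each library's total, so large changes in abundant genes shift the values of others.

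Depth was recovered from the steps between low FPKM values with exon lengths of GENCODE M21 (GRCm38): 90.7% of 47122 values under 0.3 FPKM were whole fragments within 0.02, against 4% by chance. A count test was therefore run only as an alternative (limma voom), added after seeing the data. The test was limma (3.58.1, R 4.3.3) on log2(FPKM + 1), which understates changes of low genes, over the 10817 genes averaging 1 FPKM or more. All 13 libraries entered 1 fit with a mean per group and an intensity trend, with Benjamini-Hochberg adjustment within each of 6 comparisons. The limma fit alone was tested on simulated data, and Python 3.11.15 was used for summaries.

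The design text counts mice, and n is taken as mice. Library names are given for the PKR KO libraries alone, so a difference in preparation cannot be told apart from the genotype.

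The members, the other lists and the markers were chosen with earlier results of these data known. Genes named with values were those called in 5xFAD EGFP against wild type or against 5xFAD EGFP, the TFEB family, the 3 smallest unadjusted p in each direction where none was called, the 3 largest called changes elsewhere, and the highest and lowest of each role in wild type. Further members are named to account for each role. Alternatives were a pseudocount of 0.1, no filter, 3 other scalings, the compared groups alone, library weights, a replicate block, voom and leaving out each library. Promoter windows are from RefSeq tables of GRCm38.p6.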

Additional observations from a re-analysis of the deposited data

Results flagged for a closer look

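Among 86 combinations of a member with a group of 4 libraries, 2 had a library far from the rest by Dixon's ratio (gap to the nearest value over the range, above the 95% critical value). Chance gives such a result in about 1 of 20 groups. Sgsh was lowest in PKR KO replicate 4, at 1.53 FPKM against 2.15 to 2.18 in the other 3 (ratio 0.961). Atp6v0a1 was highest in PKR KO replicate 2, at 28.2 FPKM against 26.4 to 26.7 (ratio 0.856).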

How the results depend on the processing

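In 5xFAD EGFP against wild type 23 members were called, and 18 to 25 under each alternative except the 2 groups alone (8) and leave-one-out fits (10 to 23), where all tested genes gave 4.71% to 33.2% and, leave-one-out, 5.23% to 18.5%; a lone 5xFAD EGFP library is there assumed to vary like the other groups. Of circRNA against PKR KO, library weights called 8 members (29.2% of all tested genes), median-ratio scaling 2 (7.81%), quantile normalization 2 (4.72%), rescaling 2 (6.83%), the 2 groups alone 2 (8.26%), voom 3 (8.81%) and leave-one-out fits 0 to 1 (1.36% to 4.68%). PKR KO against 5xFAD EGFP gave 5 with library weights (7.6% of all tested genes) and 0 otherwise, leave-one-out fits included (at most 5.33%, with the 2 groups alone), and circRNA against 5xFAD EGFP gave 0 throughout. Leave-one-out counts against wild type were 27 to 31 with circRNA (20.1% to 26.5% of all tested genes) and 27 to 32 with PKR KO (28.7% to 35.6%). Rescaling to the same sum moved the median of all tested genes to -0.21 in 5xFAD EGFP, -0.25 with circRNA and -0.29 in PKR KO against wild type, and the members' medians to 0.36, 0.37 and 0.40. It reversed Tfeb in PKR KO (-0.000878) and Atp6v1e1 with circRNA (-0.0193) against wild type; the cause was not tested.

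The labels do not pair libraries by number, and deviations of same-numbered libraries correlated at a mean of 0.02 to 0.33 over the 6 comparisons. With the replicate block 18 members were called in 5xFAD EGFP (12.1% of all tested genes), 28 with circRNA (24.8%) and 30 in PKR KO (35.8%) against wild type, and 0 in the 3 comparisons within 5xFAD. Depth limits the wild type value of Atp6v0d2.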
